A study of Mus musculus with 16 samples.

Results

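The adrenergic signalling genes of the mouse left ventricle were described here from 8 of the 55492 genes in the deposited expression table. They were taken by name: the receptors Adrb1, Adrb3, Adra1a and Adra1b, the receptor kinases Grk2 and Grk5, and the adenylyl cyclases Adcy5 and Adcy6. Of these 8 genes, 7 reached a mean of 10 normalized counts over the 16 libraries and entered the tests with 20576 genes in all. Adrb3 stayed below that level and was not tested.

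The series measured total RNA of the left ventricle to ask what loss of PKM2, the M2 form of the glycolytic enzyme pyruvate kinase, does to the heart after myocardial infarction (MI). Mice were C57BL/6, labelled male and 8 to 12 weeks old, and either PKM2fl/fl, in which the floxed allele is intact, or PKM2-/-, in which CMV-Cre had removed exon 10 in every tissue before Cre was bred out. PKM2-/- is therefore a deletion in all cells and not in cardiomyocytes alone, and the controls carry the floxed allele. For each genotype there were 2 unoperated hearts (baseline), 3 hearts taken 3 days after sham surgery and 3 hearts taken 3 days after permanent ligation of the left anterior descending artery.

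Noradrenaline and adrenaline act on the heart through beta receptors, which couple to Gs and raise cyclic AMP through adenylyl cyclase, and through alpha1 receptors, which couple to Gq and phospholipase C. Cyclic AMP activates protein kinase A, which phosphorylates calcium channels, phospholamban and sarcomere proteins and so speeds and strengthens each beat. Receptor kinases phosphorylate occupied receptors and recruit arrestins, which uncouple the receptor from its G protein.

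The libraries held between 20623769 and 71855101 reads on genes, and the gene CT010467.1 took from 0.111% to 25.1% of them. The deposited values were counts divided by size factors, so that all values came out as whole reads within a tolerance of 0.01. Pkm as a whole lay between 7779 and 16113 normalized counts. This says nothing of exon 10, because reads were counted per gene and exon-level data were not analysed here. Summed over 10 cardiomyocyte markers, the libraries fell into separate ranges: 879791 to 1141030 normalized counts in the 10 unoperated and sham hearts, and 180973 to 436216 in the 6 infarcted hearts. Among the infarcted PKM2fl/fl hearts, replicate 3 stood apart with 180973 against 436216 and 415261 in replicates 1 and 2. Results of the main fit that rest on it are given with and without it.

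Infarction moved the whole tested set. All 7 tested genes passed the test in each genotype (adjusted p under the 0.05 threshold, limma-trend fit over all genes), 5 of them lower and 2 higher. In PKM2fl/fl hearts 50.1% of all tested genes passed, with 25.3% lower and 24.8% higher, and in PKM2-/- hearts 56.8% passed, with 28.1% lower and 28.7% higher. The median of the 7 genes was -1.34 on the log2 scale in PKM2fl/fl hearts and -1.89 in PKM2-/- hearts, where the median of all genes was -0.00 and 0.01. The 5 genes that fell were also past a 2-fold difference in both genotypes, as were 23.5% and 28.8% of all genes. Without PKM2fl/fl MI replicate 3 there were 2 in PKM2fl/fl hearts, Adra1a and Adcy6, where 18.5% of all genes passed, and Adrb1, Adra1b and Adcy5 stood at -0.99, -0.99 and -0.96.

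**Figure D1:**
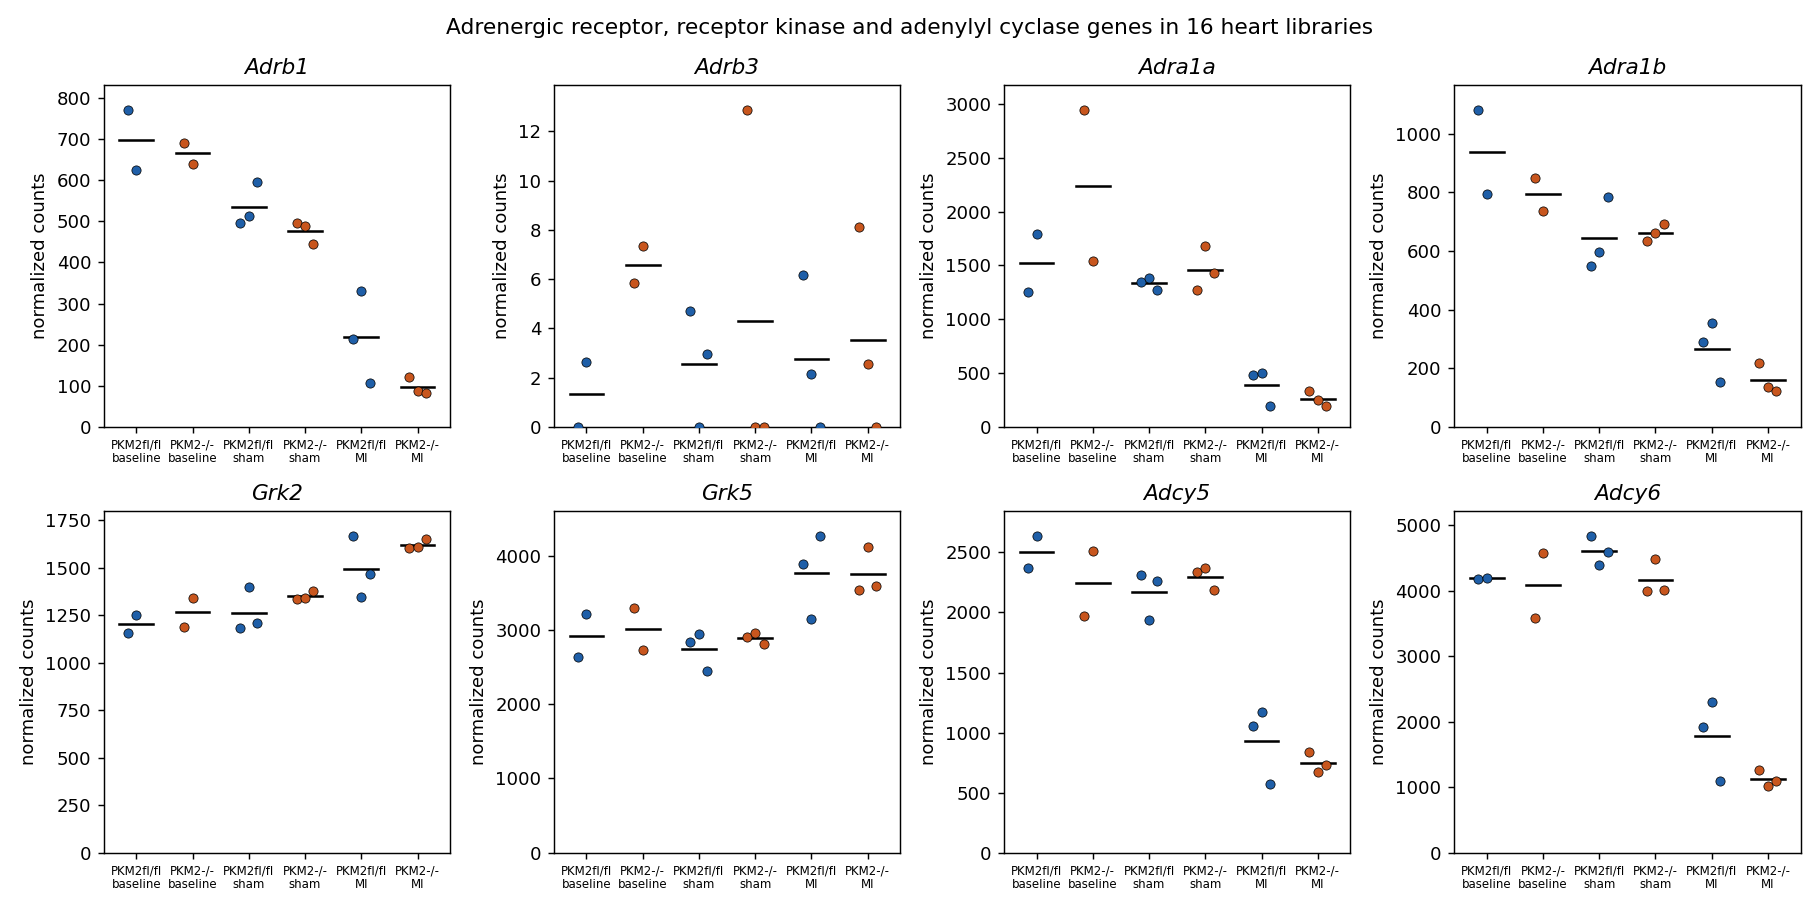
Normalized counts of the 8 genes (vertical axes, each from 0) in the 16 libraries, grouped on the horizontal axis by genotype and treatment. Points are libraries, blue for PKM2fl/fl and orange for PKM2-/-, and horizontal lines are group means. Adrb1, Adra1a, Adra1b, Adcy5 and Adcy6 lay below every sham library in every infarcted heart, while Adrb3 never exceeded 12.9.

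Adrb1 encodes the beta1 receptor, the main beta receptor of the ventricular myocyte (GRCm38.p6, chr19:56722117-56725150). In PKM2fl/fl hearts it stood at 495, 512 and 596 normalized counts after sham surgery and at 215, 331 and 108 after infarction. The PKM2-/- hearts held 495, 488 and 446 after sham surgery and 121, 86.4 and 82.2 after infarction. Every infarcted heart lay below every sham heart of its genotype, and the low PKM2fl/fl library was replicate 3. The log2 fold change was -1.43 (SE 0.28, limma adjusted p = 0.00059) in PKM2fl/fl hearts, a 2.69-fold lower level, and -2.31 (SE 0.28, adjusted p = 6.16e-06) in PKM2-/- hearts, a 4.97-fold lower level.

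Adra1a, the alpha1A receptor, is a Gq-coupled receptor of myocytes (chr14:66635251-66771240). It was the gene with the largest fall among the 7 in both genotypes. After sham surgery it stood at 1344, 1387 and 1270.2 normalized counts in PKM2fl/fl hearts and at 1270.04, 1678 and 1426 in PKM2-/- hearts. Infarcted PKM2fl/fl hearts held 481, 504 and 193, and infarcted PKM2-/- hearts 332, 249 and 196. The groups did not overlap, and the infarcted PKM2-/- hearts lay inside the range of the infarcted PKM2fl/fl hearts. The log2 fold changes were -1.88 (SE 0.32, limma adjusted p = 0.000165) and -2.51 (SE 0.32, adjusted p = 8.84e-06).

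Adra1b, the alpha1B receptor, also couples to Gq (chr11:43774605-43901250). Sham hearts stood at 549, 596 and 783 normalized counts in PKM2fl/fl mice and at 633, 659.5 and 691 in PKM2-/- mice. After infarction the values were 289, 355 and 154 in PKM2fl/fl hearts and 219, 135 and 121 in PKM2-/- hearts. Here too each infarcted heart lay below each sham heart of its genotype. The log2 fold change of Adra1b was -1.34 (SE 0.27, limma adjusted p = 0.000671) in PKM2fl/fl hearts and -2.10 (SE 0.27, adjusted p = 9.4e-06) in PKM2-/- hearts.

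Adrb3, the beta3 receptor, which can couple to Gi and nitric oxide, was close to the lower end of what these libraries could count (chr8:27225776-27230845). Its values ran from 0 to 12.9 normalized counts, or 0 to 10 reads, and 6 of the 16 libraries held no read. The highest was 1 PKM2-/- sham heart with 8 reads, while the other 2 hearts of that group were at 0. Adrb3 was below the filter on low values and was not tested, and no fold change is given. At baseline the PKM2-/- hearts, with 5.83 and 7.33 normalized counts on 5 and 4 reads, lay above the PKM2fl/fl hearts, with 0 and 2.65 on 0 and 4 reads, where 17.7% of all tested genes did so. In the other comparisons of single groups the values of Adrb3 overlapped. Opposite-strand exons of Gm45470 cover 2540 of its 5719 annotated exonic bases, and whether counting used strand is not given in the sources used here.

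Promoter windows from RefSeq (GRCm38.p6, 250 bases before to 50 bases after an annotated start) were at hand for 4 of the 8 genes. They are shown for Adrb1, Adra1b and Adcy5, which fell together after infarction. Capitals mark matches, on either strand, to any of 6 short motifs. The first is TGACG, the core of the element bound by cyclic AMP responsive factors. The second is GGGCGG, the GC box bound by Sp1 and its relatives. The third is CATTCC, the M-CAT element of muscle genes. The fourth is AGATAA, a form of the site recognised by cardiac and blood zinc finger factors of the GATA family. The fifth is CAGCTG, an E box of muscle genes. The sixth is TATAAA, the box found upstream of many tissue-specific starts. The sequences run 5′ to 3′ on the gene's strand, at chr19:56721867-56722166 (plus) for Adrb1, chr11:43836440-43836739 (minus) for Adra1b and chr16:35154614-35154913 (plus) for Adcy5.
Adrb1: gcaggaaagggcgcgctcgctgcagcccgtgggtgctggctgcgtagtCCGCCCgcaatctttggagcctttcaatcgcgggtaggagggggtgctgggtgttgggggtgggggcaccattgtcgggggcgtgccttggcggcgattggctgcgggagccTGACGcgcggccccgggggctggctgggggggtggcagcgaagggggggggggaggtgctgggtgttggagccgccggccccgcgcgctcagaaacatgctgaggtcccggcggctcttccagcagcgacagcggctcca
Adra1b: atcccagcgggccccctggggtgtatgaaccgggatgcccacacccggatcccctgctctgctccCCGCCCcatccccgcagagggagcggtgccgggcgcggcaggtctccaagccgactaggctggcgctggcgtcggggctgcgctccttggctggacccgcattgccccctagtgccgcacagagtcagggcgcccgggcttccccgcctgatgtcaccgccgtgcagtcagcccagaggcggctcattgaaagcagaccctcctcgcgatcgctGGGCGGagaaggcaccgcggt
Adcy5: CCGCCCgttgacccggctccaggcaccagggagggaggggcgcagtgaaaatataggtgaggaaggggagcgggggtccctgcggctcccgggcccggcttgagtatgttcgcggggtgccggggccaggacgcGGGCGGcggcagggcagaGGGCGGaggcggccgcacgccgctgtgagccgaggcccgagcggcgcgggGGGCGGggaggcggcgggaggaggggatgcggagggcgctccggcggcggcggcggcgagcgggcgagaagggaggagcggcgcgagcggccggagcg
The GC box was in all 3 windows shown, with 4 matches for Adcy5, 2 for Adra1b and 1 for Adrb1. It is held by 35.7% of 32851 windows of this length. TGACG was in the Adrb1 window alone of these 3, starting 90 bases before the annotated start, and is held by 20.8% of all windows. The M-CAT element, the GATA site, the E box and the TATA box, held by 14.7%, 11.2%, 16.3% and 13.6% of all windows, had no match in these 3. The 3 windows were 72.3%, 71.3% and 79.0% G or C, where the median of all windows was 52.7%. A second annotated Adra1b window (chr11:43901188-43901487) and that of Grk5 (chr19:60889499-60889798) held none of the 6 motifs, the GC box included. These 2 windows were 42.3% and 54.3% G or C, so the GC box and the high G or C share do not hold for every window of these genes. Adrb3, Adra1a, Grk2 and Adcy6 were not in the table. A match of letters is a description of the window and no measurement of a bound factor.

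The receptor kinases went the other way. Grk2, also known as beta-adrenergic receptor kinase 1, phosphorylates agonist-occupied receptors (chr19:4285999-4306222). PKM2fl/fl sham hearts held 1181, 1397 and 1210.4 normalized counts, and infarcted hearts 1668, 1349 and 1467. Values in PKM2-/- hearts were 1336, 1344 and 1378 after sham surgery and 1605, 1611 and 1650.4 after infarction. In PKM2fl/fl mice infarcted replicate 2 lay below sham replicate 2, so the groups overlapped, while in PKM2-/- mice they did not. Grk2 rose by a log2 fold change of 0.24 (SE 0.10, limma adjusted p = 0.0463) in PKM2fl/fl hearts and 0.26 (SE 0.10, adjusted p = 0.0284) in PKM2-/- hearts. Both calls sat near the threshold: in PKM2fl/fl hearts the adjusted p was 0.161 without sham replicate 1, 0.132 without sham replicate 3, 0.193 without MI replicate 1 and 0.0622 without MI replicate 3. In PKM2-/- hearts it was 0.0689, 0.0606, 0.0588 and 0.0756 without sham replicate 1, sham replicate 2, MI replicate 2 and MI replicate 3.

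Grk5, the second receptor kinase abundant in the heart, binds the plasma membrane directly and can also enter the nucleus (chr19:60889560-61095968). It stood at 2843, 2947 and 2443 normalized counts in PKM2fl/fl sham hearts and at 3886, 3154 and 4267 in infarcted ones. The PKM2-/- hearts held 2909.8, 2955 and 2811 after sham surgery and 3534, 4124 and 3599 after infarction. No infarcted heart overlapped the sham hearts of its genotype, and the highest value was in the PKM2fl/fl library with the lowest cardiomyocyte markers. The log2 fold changes were 0.45 (SE 0.12, limma adjusted p = 0.00716) and 0.37 (SE 0.12, adjusted p = 0.0189). In PKM2-/- hearts the adjusted p was 0.0526 without sham replicate 3 and 0.0847 without MI replicate 2.

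Adcy5 and Adcy6 encode the 2 closely related adenylyl cyclases that make most of the cyclic AMP of ventricular myocytes and are inhibited by calcium and by Gi. Adcy5 (chr16:35154494-35305743) stood at 2316, 1934 and 2259 normalized counts in PKM2fl/fl sham hearts and at 1054, 1174 and 571 after infarction. Its values in PKM2-/- hearts were 2336, 2369 and 2189 after sham surgery and 841, 669 and 727 after infarction. The infarcted PKM2-/- hearts lay inside the range of the infarcted PKM2fl/fl hearts. The log2 fold changes of Adcy5 were -1.28 (SE 0.20, limma adjusted p = 9e-05) in PKM2fl/fl and -1.63 (SE 0.20, adjusted p = 7.11e-06) in PKM2-/- hearts.

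Adcy6 (chr15:98589978-98610287) held 4835, 4392 and 4583 normalized counts in PKM2fl/fl sham hearts, and 1923, 2303 and 1095 after infarction. In PKM2-/- hearts it held 4001, 4479 and 4004, and 1259, 1012 and 1098. All 6 infarcted hearts lay below all 6 sham hearts. The log2 fold change was -1.44 (SE 0.20, limma adjusted p = 2.64e-05) in PKM2fl/fl hearts and -1.89 (SE 0.20, adjusted p = 1.61e-06) in PKM2-/- hearts.

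**Figure D2:**
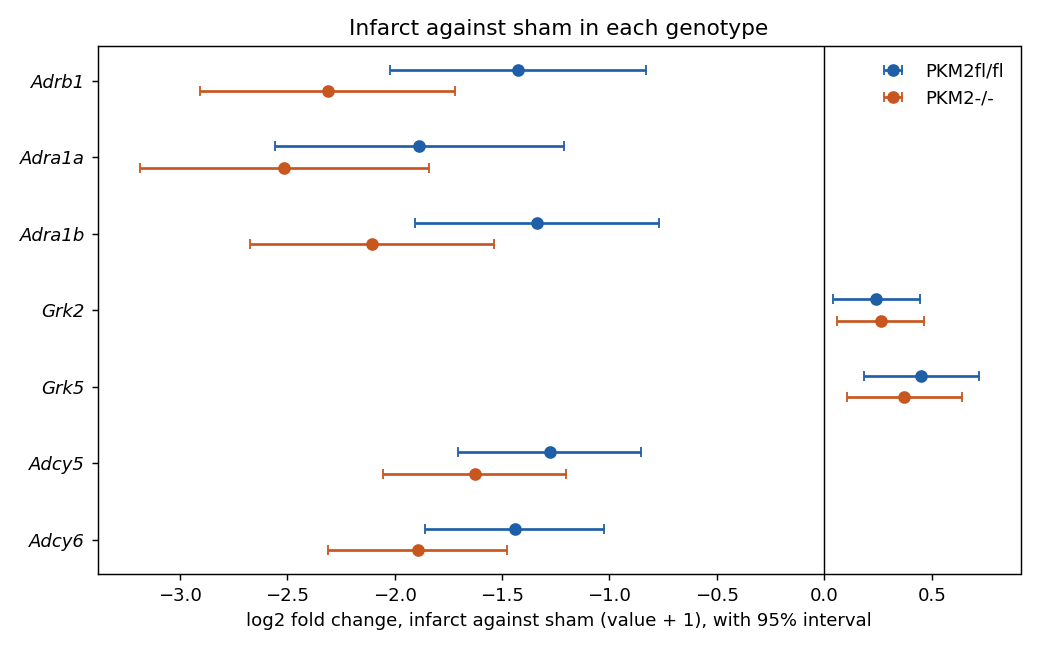
Log2 fold changes of infarcted against sham hearts (horizontal axis, on values plus 1) for the 7 tested genes, with 95% intervals from the limma fit, in PKM2fl/fl (blue) and PKM2-/- (orange) hearts. The receptors and cyclases lay between -2.51 and -1.28, and Grk2 and Grk5 between 0.24 and 0.45.

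In 3 against 3 libraries the groups of 5 genes did not overlap and were lower after infarction in both genotypes, where 29% and 30.6% of all genes did so. For 1 gene in PKM2fl/fl hearts (Grk5) and 2 in PKM2-/- hearts (Grk2 and Grk5) they did not overlap and were higher, where 30% and 31.7% of all genes did so. Over both genotypes all 7 genes were called, as were 65.7% of all genes.

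Levels of different genes can be compared only per length. Divided by the exonic length in GENCODE M39, PKM2fl/fl sham hearts held 661 ± 31.9 normalized counts per kilobase of Adcy6 (SD, n = 3), 293 ± 27.8 of Adcy5, 273 ± 26.5 of Grk5, 267 ± 24.8 of Grk2, 190.1 ± 36.6 of Adra1b, 158.0 ± 16.03 of Adrb1, 66.2 ± 2.93 of Adra1a and 0.445 ± 0.415 of Adrb3. The ranges over these 3 hearts overlapped between Adcy5, Grk5 and Grk2, and between Adra1b and Adrb1. The Adra1a figure uses 20155 annotated exonic bases, the longest of the 8 genes, so it is a low estimate if the heart uses a shorter transcript. In infarcted PKM2fl/fl hearts Grk5 stood at 375 ± 56.3, Grk2 at 317 ± 34.2, Adcy6 at 255 ± 88.7 and Adrb1 at 64.5 ± 33.0 per kilobase (SD, n = 3). The ranges of Adcy6 and both kinases overlapped there: in MI replicate 2 Adcy6 was at 331, above Grk5 at 314 and Grk2 at 286, and without MI replicate 3 the means per kilobase were 350.0 for Grk5, 319.6 for Grk2 and 303 for Adcy6. In infarcted PKM2-/- hearts both kinases lay above Adcy6 in all 3 libraries, with Grk5 at 351 to 410.0, Grk2 at 340.1 to 349.7 and Adcy6 at 145 to 181 per kilobase. Adrb1 stood at 28.5 ± 6.26 there. Opposite-strand exons overlap 605 of 6964 exonic bases of Adcy6 (Gm29331), 568 of 7413 of Adcy5 (Gm61320), 330 and 201 of 3382 of Adrb1 (Gm59115 and Gm59077) and 38 of 10058 of Grk5 (Gm59348). Without strand, reads of the partners cannot be told apart.

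Markers of several cell types moved in the same comparison, where 32.9% of all genes were called higher and 32.7% lower over both genotypes. All 10 cardiomyocyte markers (Myh6, Myl2, Myl3, Tnnt2, Tnni3, Actc1, Ryr2, Mb, Ckm and Cox6a2) fell over both genotypes, with a median log2 fold change of -2.04. Their sum ran from 1016680 to 1124810 in PKM2fl/fl sham hearts and from 180973 to 436216 after infarction, and from 879791 to 1072630 and from 201644 to 282688 in PKM2-/- hearts. All 8 macrophage or monocyte markers rose, with sums of 5423 to 10012 in PKM2fl/fl and 6933 to 9045 in PKM2-/- sham hearts against 20834 to 32229.8 and 25909 to 30926 after infarction. Of 8 fibroblast markers 5 rose and 2 fell, the 3 tested myofibroblast markers rose by a median of 3.71, and of 5 endothelial markers 2 rose and 1 fell. Of 5 smooth muscle or pericyte markers 3 fell and 1 rose, and of 4 tested Schwann cell or nerve markers 3 fell and 1 rose. Of 5 tested neutrophil markers 2 rose, of 4 atrial markers 1 rose and 1 fell, of 2 tested lymphocyte markers 1 rose, and the 1 tested adipocyte marker fell. None of 5 erythroid markers was called. In bulk tissue, fewer cells of a type and less RNA per cell cannot be told apart.

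**Figure D3:**
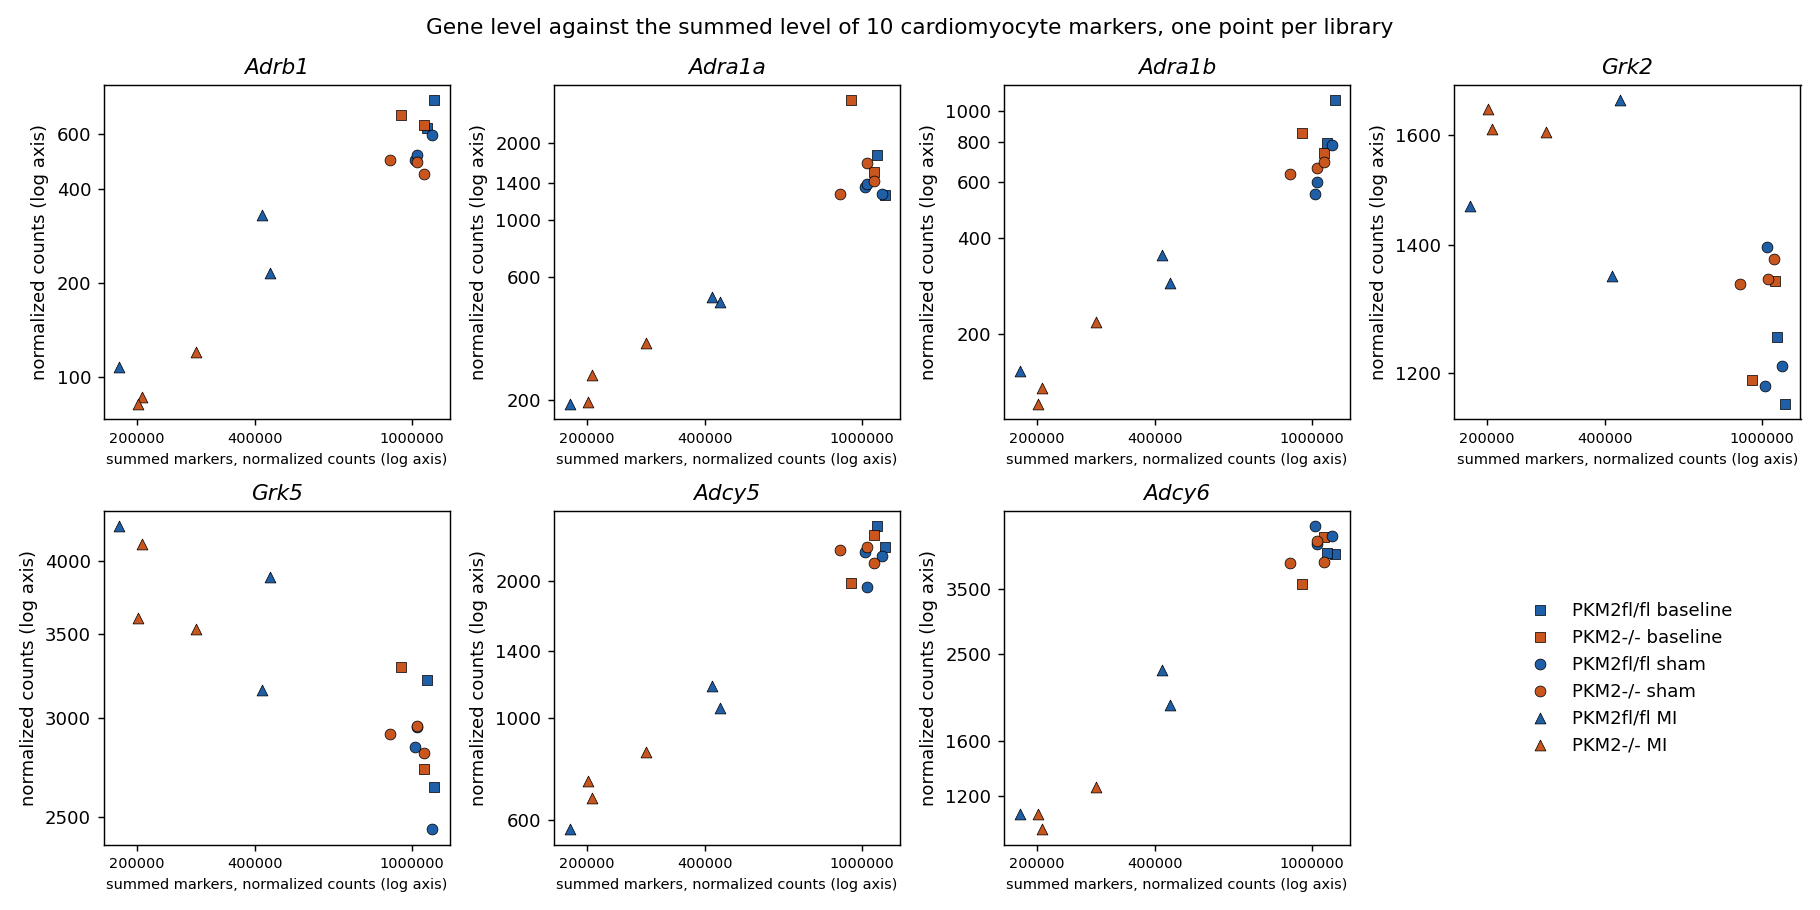
Normalized counts of the 7 tested genes (vertical, log axis) against the summed normalized counts of 10 cardiomyocyte markers (horizontal, log axis), 1 point per library, with squares for baseline, circles for sham and triangles for infarcted hearts, blue for PKM2fl/fl and orange for PKM2-/-. Infarcted hearts, at 180973 to 436216 on the horizontal axis, hold the low values of receptors and cyclases and most of the high values of Grk2 and Grk5.

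To set the genes beside that shift, each library's log2 values were also taken relative to its mean over the 10 cardiomyocyte markers, an alternative chosen after seeing the data. On this scale the median of all genes rose by 1.80 in PKM2fl/fl and 2.08 in PKM2-/- hearts, and 87.5% and 89.3% of all genes were called, nearly all as higher. Of the 7 adrenergic genes 3 were called in PKM2fl/fl hearts, Grk2, Grk5 and Adcy5, and 2 in PKM2-/- hearts, Grk2 and Grk5. Relative to the markers the beta1 receptor Adrb1 stood 0.37 higher in infarcted than in sham PKM2fl/fl hearts (SE 0.26, limma adjusted p = 0.181) and at -0.25 in PKM2-/- hearts (SE 0.26, adjusted p = 0.37). The values were -0.09 and -0.45 for Adra1a, 0.46 and -0.04 for Adra1b, 0.52 and 0.44 for Adcy5, and 0.36 and 0.17 for Adcy6. In contrast Grk2 was 2.04 and 2.33 higher and Grk5 2.25 and 2.44 higher relative to the markers. Among the receptors and cyclases, Adcy5 alone passed the test on this scale, in PKM2fl/fl hearts (SE 0.23, limma adjusted p = 0.0429). For the 3 genes called in PKM2fl/fl hearts, MI replicate 3 was the highest infarcted library on this scale. It stood at -4.41 for Adcy5 (-4.84 and -4.68 in replicates 1 and 2), -3.05 for Grk2 (-4.18 and -4.48) and -1.51 for Grk5 (-2.96 and -3.26). A fit without this library was not run on this scale. In both genotypes the receptors and cyclases lay below the median shift of all genes on this scale, and Grk2 and Grk5 above it. That order repeats the main fit and adds nothing to it, because the same value is subtracted from every gene of a library.

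The genotype contrast asks whether hearts without PKM2 differ at the same stage. After infarction 0 of 7 genes passed (limma; 0.967% of all genes did). The groups of all 7 genes overlapped, where 8.26% of all genes did not overlap and were lower and 10.7% did not overlap and were higher. At an unadjusted p under 0.05 there were 3 genes, where 17% of all genes passed that level: Adrb1 (-1.05, SE 0.28, limma adjusted p = 0.0777), Adcy6 (-0.60, SE 0.20, adjusted p = 0.137) and Adra1b (-0.71, SE 0.27, adjusted p = 0.193). edgeR called 0 and DESeq2 called 2, Adrb1 (-1.17, adjusted p = 0.00371) and Adcy6 (-0.66, adjusted p = 0.0279), where DESeq2 called 5.64% of the genes it tested. For Adra1a and Adcy5 the differences were -0.51 and -0.26, with 95% intervals of -1.18 to 0.17 and -0.69 to 0.16. Grk2 and Grk5 differed by 0.12 and 0.00, with intervals of -0.08 to 0.33 and -0.26 to 0.27.

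This comparison turned on 1 library. Without PKM2fl/fl MI replicate 3, which had the lowest cardiomyocyte markers, 5 of 7 genes were called lower in PKM2-/- hearts, where 7.64% of all genes were called lower. Adrb1 was then at -1.48 (limma adjusted p = 0.000252), Adra1b at -1.06 (0.00683), Adra1a at -0.96 (adjusted p = 0.0207), Adcy6 at -0.91 (0.000295) and Adcy5 at -0.58 (0.00788). The 2 remaining infarcted PKM2fl/fl hearts had cardiomyocyte sums of 415261 and 436216, above the 201644 to 282688 of the PKM2-/- hearts. Leaving out any other infarcted heart gave 0 calls. Relative to the cardiomyocyte markers, with all libraries, Adrb1 differed by -0.64 (SE 0.26, limma adjusted p = 0.36) and Adcy6 by -0.19 (SE 0.23, adjusted p = 0.599).

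The interaction, which asks whether the infarct difference itself differs between genotypes, called 0 of 7 genes and 0 of all genes (limma; edgeR called 0 and DESeq2 0 of the 7). At an unadjusted p under 0.05 there was 1 gene, Adrb1 (-0.88, SE 0.40, limma adjusted p = 0.58), where 8.28% of all genes passed that level. The fall of Adrb1 was thus not shown to differ between genotypes. Without PKM2fl/fl MI replicate 3 there were 3 calls, Adrb1 (-1.32, adjusted p = 0.0158), Adcy6 (-0.76, adjusted p = 0.025) and Adcy5 (-0.67, adjusted p = 0.0484), where 2.35% of all genes were called.

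In unoperated hearts the genotypes were not shown to differ for any of the 7 genes (limma; 0 by edgeR and 0 by DESeq2), where 0.00972% of all genes were called. At an unadjusted p under 0.05 there were 0 of 7, where 3.64% of all genes passed that level. Adrb1 stood at 770.01 and 626 normalized counts in PKM2fl/fl and 691 and 639.6 in PKM2-/- hearts. The widest interval was that of Adra1a, with 1250.4 and 1791 in PKM2fl/fl and 2941 and 1543 in PKM2-/- hearts, a difference of 0.51 with a 95% interval of -0.32 to 1.33. After sham surgery 0 of 7 genes were called as well (limma; 0 at an unadjusted p under 0.05, 0 by edgeR and 0 by DESeq2), where 0.00972% of all genes were called and 9.95% passed the unadjusted level. The differences ran from -0.16 for Adrb1 to 0.12 for Adra1a.

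Sham surgery alone called 0 of 7 genes in either genotype (limma; 0 at an unadjusted p under 0.05, 0 by edgeR and 0 by DESeq2), where 0.19% of all genes in PKM2fl/fl and 5.14% in PKM2-/- hearts were called, and 8.81% and 18.9% passed the unadjusted level. The same sham libraries serve here and in the infarct comparison. Adrb1 and Adra1b were lower in all sham than in all baseline hearts of both genotypes, by -0.38 and -0.54 in PKM2fl/fl and -0.48 and -0.26 in PKM2-/- hearts on the log2 scale, without passing the test. In 3 against 2 libraries, 3 genes did not overlap and were lower in PKM2fl/fl hearts and 2 in PKM2-/- hearts, where 15.2% and 16.1% of all genes did so. In PKM2fl/fl hearts 1 gene, Adcy6, did not overlap and was higher in sham hearts (0.14), and 0 in PKM2-/- hearts, where 17.4% and 18.4% of all genes did so.

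The rest of the pathway was read from 9 lists of 81 genes, of which 78 could be tested. Over both genotypes 62 were called after infarction, 21 higher and 41 lower (65.7% of all genes were called, 32.9% higher and 32.7% lower), and the median of the 78 was -0.47, beside 0.01 for all genes. Genes named here are up to 3 with the smallest p of each list.

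**Figure D4:**
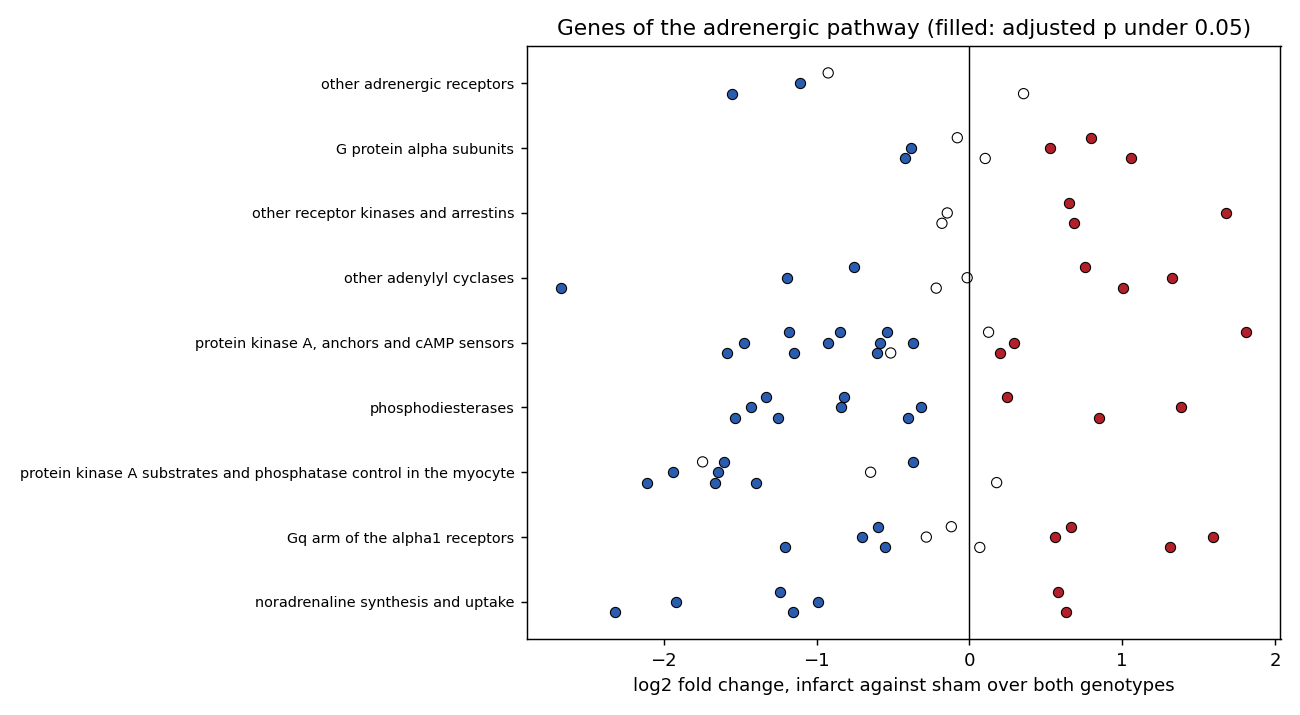
Log2 fold changes of infarcted against sham hearts over both genotypes (horizontal axis) for the 78 tested pathway genes, 1 row per list. Filled points were called, red for higher and blue for lower, and open points were not. The list of protein kinase A substrates has 7 called genes, all lower, and the receptor kinases and arrestins have 3, all higher. Of all genes 65.7% were called, 32.9% higher and 32.7% lower.

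Among the other adrenergic receptors 2 of 4 tested genes were called, both lower, where 65.7% of all genes were called and 32.7% were called lower. Adra1d, the alpha1D receptor, ran from 66.4 to 88.5 normalized counts in sham hearts and from 15.9 to 43.3 in infarcted hearts (-1.55, SE 0.26, limma adjusted p = 7.3e-05). Adra2b, an alpha2 receptor that couples to Gi, ran from 25.9 to 37.6 in sham hearts and from 7.62 to 25.94 after infarction (-1.11, SE 0.29, limma adjusted p = 0.0031). Taken by genotype, Adra2b was called in PKM2fl/fl hearts (-1.56, limma adjusted p = 0.00471). In PKM2-/- hearts it was not called (-0.65, limma adjusted p = 0.182), and the groups overlapped.

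Of 7 G protein alpha subunits 3 rose and 2 fell, where 32.9% of all genes were called higher and 32.7% lower. Gnai2 and Gnai3, which inhibit adenylyl cyclase, rose by 0.79 (SE 0.06) and 1.06 (SE 0.09), and Gnaq, a Gq subunit used by the alpha1 receptors, rose by 0.53 (SE 0.10). Gna11, the other Gq-class subunit of the heart, fell by 0.38 (SE 0.08). Gnas, which encodes the stimulatory subunit Gs, fell by 0.42 (SE 0.09, limma adjusted p = 0.000681). Gnas and Gna11 were named after their values were seen. Gnai3 went from 791 to 1104 normalized counts in sham hearts to 1504 to 2328 in infarcted hearts, without overlap.

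Of the other receptor kinases and arrestins 3 of 5 were called, all higher, where 65.7% of all genes were called and 32.9% were called higher. Arrb2 and Arrb1, the arrestins that bind phosphorylated receptors, rose by 1.68 (SE 0.12, limma adjusted p = 1.92e-08) and 0.68 (SE 0.07), and the receptor kinase Grk6 by 0.66 (SE 0.07). Arrb2 ran from 229 to 364 normalized counts in sham hearts and from 699 to 1235 after infarction. It is also abundant in leukocytes, whose markers rose in the same libraries, and their part in the result was not tested.

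Of 8 other adenylyl cyclases 3 rose and 3 fell, where 32.9% of all genes were called higher and 32.7% lower. Adcy7, a cyclase known from immune cells, rose by 1.33 (SE 0.08, limma adjusted p = 2.21e-09), from 476 to 728 normalized counts in sham hearts to 1374 to 1640 in infarcted hearts. Adcy3 rose by 1.00 (SE 0.10) and Adcy9 fell by 0.76 (SE 0.08). The cyclases so moved in both directions, with Adcy5 and Adcy6 among those that fell.

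Protein kinase A, its anchors and the other cyclic AMP sensors had 3 of 15 genes higher and 10 lower (32.9% and 32.7% of all genes). Akap1, which anchors the kinase to mitochondria, fell by 1.59 (SE 0.15), and Pkia, which encodes an inhibitor peptide of the kinase, fell by 1.18 (SE 0.10, limma adjusted p = 6.42e-08). The regulatory subunit gene Prkar2b rose by 1.81 (SE 0.17), from 46.4 to 127 normalized counts in sham hearts to 197 to 378 in infarcted hearts. The phosphodiesterases, which break down cyclic nucleotides, were all called, 3 of 11 higher and 8 lower (65.7% of all genes were called). Pde4d, a cyclic AMP phosphodiesterase of the calcium release complex, fell by 1.53 (SE 0.13), Pde7a fell by 1.33 (SE 0.12) and Pde1a, a calmodulin-dependent enzyme, rose by 1.38 (SE 0.10, limma adjusted p = 2.82e-08).

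Among 10 myocyte substrates of protein kinase A and genes of phosphatase control, 7 fell and none rose, by limma over both genotypes. Of all genes 32.7% were called lower and 32.9% higher. Pln, which encodes phospholamban, the brake on the calcium pump, fell by 1.94 (SE 0.18), Cacna1c, the pore of the L-type calcium channel, by 1.60 (SE 0.15) and Ryr2, the calcium release channel, by 1.65 (SE 0.16, limma adjusted p = 3.84e-07). Pln ran from 77657 to 109412 normalized counts in sham hearts and from 16582 to 42743 after infarction. Ryr2 and Tnni3 of this list also belong to the cardiomyocyte markers. In the Gq arm of the alpha1 receptors 4 of 11 genes rose and 4 fell, beside 32.9% and 32.7% of all genes. Prkcd stood at 1.31 (SE 0.08), Prkcb at 1.60 (SE 0.13) and Rgs5, a regulator of G protein signalling found in pericytes, at -1.21 (SE 0.12).

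Of 7 tested genes of noradrenaline synthesis and uptake 5 fell and 2 rose, where 32.7% of all genes were called lower and 32.9% higher. Slc22a3, an uptake transporter for catecholamines outside neurons, fell by 2.32 (SE 0.30), from 116 to 181 normalized counts in sham hearts to 12.8 to 64.9 in infarcted hearts. Maob and Ddc fell by 1.92 (SE 0.17) and 1.16 (SE 0.20, limma adjusted p = 0.000132). The sympathetic nerve gene Th was at 0 to 4.86 normalized counts in every group and was not tested.

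In sham against baseline PKM2-/- hearts 4 of 78 pathway genes were called (5.14% of all genes were). These were Adcy7 (0.73, SE 0.12), Prkcd (0.74, SE 0.13) and Pde10a (1.19, SE 0.27), which rose, and Plcb1, the phospholipase C of the Gq arm, which fell by 0.57 (SE 0.16, limma adjusted p = 0.0477). They were chosen for naming after their values were seen.

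The genes whose levels followed each member most closely were sought among the 13463 other genes whose mean reached 100 normalized counts, by Pearson's r of log2 values over the 16 libraries. Adcy5 was closest to Jph2, the junctophilin of the cardiac dyad (r = 0.998), Adcy6 to Acad12 (r = 0.995), Adrb1 to the splicing regulator Rbm20 (r = 0.991) and Adra1a to Cyfip2 (r = 0.986). Grk2 was closest to Nolc1 (r = 0.948), a nucleolar protein gene, and Grk5 to Rbms3 (r = 0.913). Rnf207 was among the 3 genes nearest to Adra1b (r = 0.991). The 16 points fall into infarcted and other hearts, so that these values are set largely by the difference between them, and they are a description.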

How the data were processed

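Total RNA of 16 left ventricles was depleted of ribosomal RNA and sequenced as paired ends. The authors used HISAT2 (build mm10) for alignment, featureCounts for gene counts and DESeq2 for size factors, and the deposited signal is the count over the size factor, here named normalized count. Strand and multi-mapping settings are not given in the sources used here. The deposited table also holds the authors' log2 fold changes with standard errors, Wald scores and p-values, which were not used. Groups came from the sample titles, and each library is 1 mouse per the study.

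Tests used limma 3.58.1 (limma-trend, R 4.3.3) on log2(normalized count + 1) in 1 fit of 6 groups over 20576 genes with a mean of at least 10, with Benjamini-Hochberg adjustment over all of them, so fold changes of low genes are understated. A gene was called at an adjusted p under 0.05. As alternatives, edgeR 4.0.16 and DESeq2 1.42.0 were run on recovered reads, beside other scales, filters, pseudocounts, weights and left-out libraries. The scripts were tested on simulated data. Replicates of a group differed beyond sampling noise. The 8 genes, the pathway lists and the markers were chosen with earlier results of these data known. Named were all 8 genes, up to 3 genes of smallest p for each pathway list, and the closest genes by correlation. Some items of the lists and of that rule are not reported here. A permutation of 3 against 3 hearts cannot go below p = 0.1, so none was used. Read depth limits low genes such as Adrb3.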

Additional observations from a re-analysis of the deposited data

How the results depend on the processing

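Direction and call of Adrb1, Adra1a, Adra1b, Adcy5 and Adcy6 after infarction held in both genotypes under the other normalizations, tests, pseudocounts, filters and left-out libraries. In PKM2fl/fl hearts Grk2 lost its call under edgeR (adjusted p = 0.0555), with no filter (0.0879), with only the groups compared (0.143) and with total reads as scale (0.06, adjusted p = 0.904), where Grk5 was also lost (0.27, adjusted p = 0.542). Over 11 alternative fits the adjusted p of Grk2 also passed the threshold elsewhere, reaching 0.0545 in PKM2-/- hearts and 0.0852 over both genotypes. Total reads moved the median of all genes by -0.18, 0.52 and 0.17 in the infarct comparisons of PKM2fl/fl, PKM2-/- and both, and 39.5%, 79.3% and 61.2% of calls were then higher, beside 49.5%, 50.5% and 50.2%. For genotype after infarction 83.2% were higher, beside 40.7%. In that comparison 2 of the 7 genes were called by DESeq2 and 5 with sample quality weights, beside 0, and left-out libraries gave 0 to 5, while the interaction gave 0 to 3. Over all genes its calls were 199, and 1033 by DESeq2, 2040 with weights, 6 with only the groups compared, 119 with total reads as scale, and 11 to 2271 with 1 library left out. The cause was not tested.

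Values were also taken relative to cardiomyocyte markers, an alternative chosen after seeing the data. On this scale 3, 2 and 3 adrenergic genes were called after infarction in PKM2fl/fl, PKM2-/- and both genotypes. Of 20576 tested genes, 17999, 18384 and 19093 were called in these comparisons, a larger share than of the adrenergic genes. The direction turned because this scale subtracts the fall of the markers. The values were 0.37 for Adrb1, 0.46 for Adra1b, 0.52 for Adcy5 and 0.36 for Adcy6 in PKM2fl/fl hearts, 0.44 for Adcy5 and 0.17 for Adcy6 in PKM2-/- hearts, and 0.0628 for Adrb1, 0.21 for Adra1b, 0.48 for Adcy5 and 0.27 for Adcy6 over both.

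Replicate numbers did not pair the hearts: of 36 same-numbered pairs, 1 had a correlation of deviations over 0.1. With the number as a replicate block, 6 of 7 genes in PKM2fl/fl and 7 in PKM2-/- hearts were called after infarction, with Grk2 lost (0.24, adjusted p = 0.0671). Over all genes the block gave 10054 and 11410 calls in these comparisons, beside 10299 and 11679 of 20576 tested genes in the main fit. Calls over all genes for genotype after infarction were 75 with the block.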
